A study of Mus musculus with 4 samples.

Results

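The TRIM proteins are a large family of ubiquitin ligases, and their genes were followed in immature granulocytes, the cells that mature into neutrophils, with and without the microRNA miR-223. Members were all genes that the array files name Trim plus a number, with letters after it allowed, which gave 54 genes of 27630 gene names on the array and 100 of its 41174 probes. The cells had been sorted from marrow of C57BL/6 males of the genotype miR-223 KO (2 samples) or wild type (WT, 2 samples), with no treatment or age named in the labels. Each sample was hybridised alone to a single-colour Agilent whole-genome array, and the comparison asks which transcripts differ when miR-223, a microRNA abundant in myeloid cells that lowers the transcripts it pairs with, is missing. The labels do not say in which cells the gene was deleted, nor whether each replicate is an animal of its own, so the p-values cover the scatter of these 4 samples alone, and that scatter may be technical.

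A typical TRIM protein carries a RING domain, which passes ubiquitin to a target, followed by B-box zinc fingers and a coiled coil through which the proteins pair. The carboxy-terminal end differs between members and picks the target: a PRYSPRY domain in many antiviral members, NHL repeats, a PHD finger with a bromodomain, or others. Many family genes are switched on by interferon through the interferon-stimulated response element (ISRE) in their promoters, and their products tune virus sensing or bind viral capsids. In macrophages and other myeloid cells several of them start or restrain inflammatory signalling. In the mouse a run of related members lies side by side on chromosome 7.

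Members are called interferon-linked here where they are on a list of genes reported to be induced by interferon in immune cells. The list holds 11 of the 54 (Trim5, Trim6, Trim12a, Trim14, Trim21, Trim25, Trim26, Trim30a, Trim30d, Trim34a and Trim56), and the other 43 are called the remaining members. It may not hold every member that interferon induces. Their promoters are shown because many interferon-linked members share letters there that most remaining members lack, as a description of a list drawn up from known interferon induction. In the RefSeq promoter table of GRCm38.p6, which gives 250 bases before to 50 bases after each start site, the ISRE core (GAAA, any 2 bases, then GAAA) was searched on both strands, overlapping matches included. It was in 7 of 10 interferon-linked members with a window (70%), against 1 of 31 remaining members with a window (3.23%) and 1079 of 27025 genes of the table (3.99%). The capitals mark the core, which reads TTTC, 2 bases, TTTC where it lies on the other strand, and each stretch is written 5′ to 3′ along its gene.
Trim30a: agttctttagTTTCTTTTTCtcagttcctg
Trim30d: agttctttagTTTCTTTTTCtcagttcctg
Trim34a: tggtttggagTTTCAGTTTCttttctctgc
Trim5: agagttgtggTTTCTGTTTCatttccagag
Trim12a: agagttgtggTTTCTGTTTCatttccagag
Trim21: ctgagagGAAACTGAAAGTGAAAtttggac
Trim26: cttccgaTTTCACTTTCCTTTTCtcgggcc
These stretches lie at chr7:104465210-104465239 (minus strand) for Trim30a, chr7:104507871-104507900 (minus) for Trim30d, chr7:104244457-104244486 (plus) for Trim34a, chr7:104288136-104288165 (minus) for Trim5, chr7:104315466-104315495 (minus) for Trim12a, chr7:102565447-102565476 (minus) for Trim21 and chr17:36836979-36837008 (plus) for Trim26. The Trim30a and Trim30d stretches are identical letter for letter, and so are those of Trim5 and Trim12a. Those copies are not independent matches, since the longest run shared by the windows is 118 bases for Trim30a and Trim30d and 241 bases for Trim5 and Trim12a, and each run holds the core. Trim34a and Trim21 share a run of only 10 bases, without the core. The match starts 36 bases before the annotated start in the Trim30a window shown, 41 before it in Trim30d, 49 before it in Trim5 and 160 before it in Trim26, whereas in Trim34a and Trim12a it starts at base 11 of the transcript and in Trim21 at base 14. A second annotated start of Trim30a has the same core letters from base 3 of its transcript, within chr7:104446104-104446133 (minus). Trim21 and Trim26 hold 2 overlapping cores each. Of the interferon-linked members with a window, Trim6, Trim25 and Trim56 had no match. The remaining member with a match was Trim2, which was not above background on any array, so 0 of 23 remaining members that were measured and have a window carried the core. A related motif, the gamma-activated site TTCNNNGAA, was in 0 of 10 interferon-linked windows, in 4 of 31 remaining windows (12.9%) and in 9.55% of all genes. These matches are letters in a window, not measured binding.

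Probe signal is given throughout as a percentage of the 75th percentile of the signal on the same array, which puts the 4 arrays on 1 scale. It is not a scale between genes, since probes differ in brightness. That percentile was 361 and 422 intensity units on the KO arrays and 314 and 310 on the WT arrays, between 59.6% and 62.9% of spots were well above background, and 0 spots were saturated. All 4 arrays lay on 1 slide. Of 13 neutrophil precursor markers 11 were matched by name and all 11 were above background, Mpo, Elane, Ltf and Camp among them. Their log2 differences (KO minus WT) had a median of 0.11, with 7 higher and 4 lower, and ran from -0.44 ± 0.25 for Ltf to 0.72 ± 0.10 for Prtn3. The granule proteases Prtn3, Ctsg (0.63 ± 0.09) and Elane (0.50 ± 0.09) stood on the higher side, while Mpo stood at 0.05, Camp at -0.05 and S100a8 at -0.20. The part of these marker differences in the Trim differences was not tested. The cell label was thus met by its markers, although markers of monocytes and of erythroid cells were detected too, as given beside the results below. None of these genes checks the deletion itself.

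Most of the family was detectable in these cells. A member was taken as measured when a probe of it was marked well above background by the scanner software on 2 or more arrays, and 45 of 54 members met this. By the same rule 16978 of the 27630 gene names on the array were measured. On single arrays 45 and 45 members were well above background in KO and 44 and 42 in WT. All 11 interferon-linked members and 31 of the 43 remaining members were above background on all 4 arrays. Trim52 and the muscle ligase Trim63 reached 3 arrays each, and Trim62 reached both KO arrays and neither WT array. In 9 members no probe was well above background on any array. These were Trim2, Trim7, Trim15, Trim29, Trim31, Trim42, Trim60, Trim61 and Trim66. Trim2 is best known from neurons and Trim66 from testis, and Trim29 is an epithelial member without a RING. Absence above background bounds the signal of these probes and does not show that the transcript is missing.

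Across the family, 14 measured members were higher and 5 lower in KO at an unadjusted p under 0.05 with limma, the moderated test fitted over 16978 genes. Trim62 is among the 14, although its probe met the detection filter through the KO arrays alone. The background for these counts is high, because 11.8% of all genes were higher and 12.0% lower by the same rule. At an adjusted p under 0.05 the family gave 0 members and all genes gave 0.00%, the smallest adjusted p over all genes being 0.0838 by limma. With an intensity trend in the prior variance, a setting of limma that lets the expected spread follow the signal, 7 members passed as higher (Trim30d, Trim30a, Trim34a, Trim26, Trim25, Trim3 and Trim35) and 0 as lower, against 5.45% and 4.13% of all genes. Differences below are therefore described with their errors, not called. An exact permutation test over 2 against 2 arrays cannot go below p = 0.333. With normexp, another background correction, 6 passed the adjusted threshold as higher and 1 as lower, against 5.30% and 5.74% of all genes, and with probes required above background on all 4 arrays 1 passed as higher and 0 as lower, against 0.557% and 0.243%. Without WT replicate 2 the count at an unadjusted p under 0.05 was 8 higher and 1 lower, against 8.86% and 5.77% of all genes, and on the authors' deposited values it was 13 higher and 2 lower, against 13.4% and 6.52%.

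The interferon-linked members lay mostly on the higher side in KO, and the remaining members were spread on both sides. Of 11 interferon-linked members, 10 were higher and 1 lower, with a median log2 difference of 0.37 and a range of -0.05 to 0.82. Both KO arrays lay above both WT arrays in 9 of the 11, and below in 0, where 28.0% of all genes lay wholly above and 30.5% wholly below. At an unadjusted p under 0.05 by limma, 8 were higher and 0 lower, against 11.8% and 12.0% of all genes. Several of the 11 are neighbouring near-copies whose probes may read more than 1 of them, so these counts are not of independent genes. The list was also chosen with earlier results of these data known. The 34 remaining members that were measured had a median of -0.05 and ran from -0.79 to 0.71 apart from Trim62, which was not above background in WT and has only a bound, and 13 of them were higher and 21 lower, a split that was 21 higher and 13 lower when arrays were scaled to their median signal. Among these 34, 8 lay wholly above and 9 wholly below the WT arrays, and 6 were higher and 5 lower at an unadjusted p under 0.05 by limma. Trim62 is among the 8 and the 6, although it passed the detection filter through its KO arrays alone. Over all 16978 genes the median was -0.02. Counted on each array, as the median of the members' deviations from their own mean over the 4 arrays, the interferon-linked members stood at 0.25 and 0.25 in KO and at -0.18 and -0.19 in WT on the log2 scale. For the remaining members the same medians were 0.07 and -0.04 in KO and 0.05 and -0.06 in WT, so their replicates differed from each other by more than the genotypes did. In bulk RNA, more transcript per cell and more cells of a type that holds the transcript cannot be told apart.

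**Figure D1:**
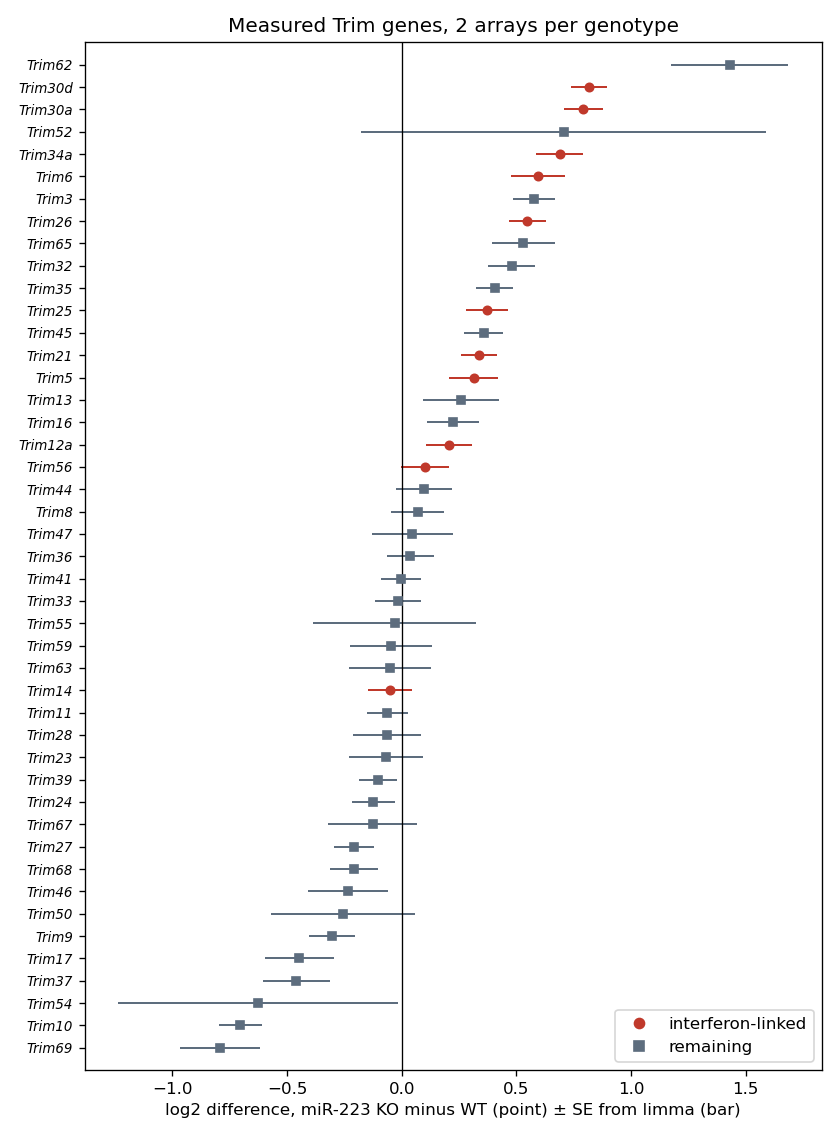
Log2 difference in signal, miR-223 KO minus WT (x axis, points, with the SE from limma as bars; 2 arrays per genotype), for the 45 measured Trim genes in order of that difference. Interferon-linked members (red circles) lie between -0.05 and 0.82 with 10 of 11 above 0, while the remaining members (grey squares) run from -0.79 to 0.71 apart from Trim62, whose plotted value of 1.43 is fitted on WT signals not above background.

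The largest differences among interferon-linked members were in the Trim30 pair. Trim30a, named Trim30 in the files, restrains Toll-like receptor signalling by removing the adaptors Tab2 and Tab3. Its level was 297% and 314% in KO, against 179% and 173% in WT. Trim30d, which the files name Trim79, is a close mouse copy of it, with levels of 196% and 203% in KO and 113% and 113% in WT. In both genes the KO arrays lay far above the WT arrays and the replicates nearly coincided. The log2 difference was 0.79 ± 0.08 (SE, n = 2 arrays per genotype) for Trim30a, with an adjusted p of 0.0859 by limma and of 0.00673 with the intensity trend. For Trim30d it was 0.82 ± 0.08, with limma adjusted p-values of 0.0838 and 0.00664. The Trim30d value was the family's smallest p, and it alone passed (adjusted p = 0.0491 by limma) when only probes above background on all 4 arrays were tested. The probe used for Trim30a lies at chr7:111557578-111557637 and that for Trim30d at chr7:111620805-111620864, both on the minus strand of mm9, the build of the probe annotation, which gives no exon or untranslated region.

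Trim34a, Trim6, Trim5 and Trim12a belong to the same chromosome 7 cluster. Trim34a, named Trim34 in the files, is related to human TRIM34, which acts with TRIM5 against some retroviral capsids, and its level was 104.6% and 116% in KO and 65.7% and 71.3% in WT. Its KO arrays lay clearly above its WT arrays, by 0.69 ± 0.10 on the log2 scale (limma adjusted p = 0.0962, and 0.0177 with the intensity trend). Trim6, in human cells, builds free ubiquitin chains that switch on the kinase Ikbke in interferon signalling, and it was dim, at 11.5% and 12.1% in KO and 8.46% and 7.20% in WT. The difference was 0.60 ± 0.12 (limma adjusted p = 0.112). Mouse Trim5 and Trim12a are relatives of primate TRIM5, the capsid-binding restriction factor. Trim5 stood at 20.7% and 23.6% in KO and at 18.1% and 17.5% in WT, a log2 difference of 0.31 ± 0.11 (limma adjusted p = 0.196). Trim12a, named Trim12 in the files, was bright in both genotypes, at 1494% and 1535% in KO and 1394% and 1237% in WT. Its arrays did not overlap between genotypes, but the difference of 0.21 ± 0.10 was close to the spread of the WT pair and had an adjusted p of 0.302 by limma. With normexp the dim members of the cluster stood at 0.06 (Trim6) and 0.10 (Trim5), and without WT replicate 2 Trim12a stood at 0.12.

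Seen along the chromosome, all 6 members of the cluster had KO arrays wholly above WT arrays by their brightest probes. Over all genes 28.0% lay wholly above and 30.5% wholly below. Another measured probe of Trim6 overlapped, at 9.47% and 8.22% in KO and 10.7% and 7.73% in WT. The brightest probes span 238 kb, with Trim34a 27.0 kb and Trim5 29.4 kb from the Trim6 probe, Trim12a at 65.4 kb, Trim30a at 174.5 kb and Trim30d at 238 kb. Measured sequences without a gene symbol lie in this stretch too. The sequences at 59.1 kb (-0.03 ± 0.11) and 107.5 kb (0.43 ± 0.35) had overlapping arrays. Another at 128 kb (0.94 ± 0.18) had both KO arrays above both WT arrays. Related genes that the files name otherwise, and that are no members, also lie between the members. Trim30b, carried as a clone name, had a log2 difference of 1.04 ± 0.18 (limma adjusted p = 0.0985), with 108% and 146% in KO and 58.8% and 63.3% in WT. Trim12c, also under a clone name, stood at 54.3% and 92.0% in KO and at 72.9% and 57.3% in WT, so its arrays overlapped (0.13 ± 0.31). Its promoter window holds the same core, 29 bases before the start, at chr7:104353359-104353388 of GRCm38.p6.
Trim12c: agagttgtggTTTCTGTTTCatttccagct
The capitals mark the core as above, and the stretch differs from that of Trim5 and Trim12a only near its 3′ end. Genes of this cluster are near-copies of each other, so a probe may read more than 1 of them, and this was not tested.

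**Figure D2:**
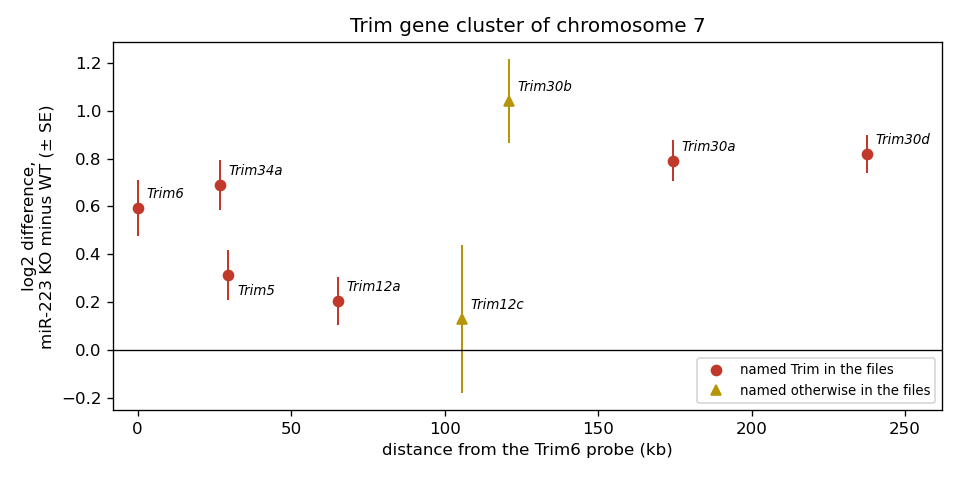
Log2 difference, miR-223 KO minus WT (y axis, ± SE from limma, 2 arrays per genotype), against the distance of each probe from the Trim6 probe in kb (x axis), for the Trim genes of the chromosome 7 cluster. Measured sequences without a gene symbol in this stretch are not plotted. The 6 members (red circles) lie between 0.21 and 0.82, with Trim12a the lowest, and the genes that the files name otherwise (gold triangles) stand at 1.04 for Trim30b and 0.13 for Trim12c.

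Members that act on virus sensors and interferon factors came next. Trim26, which has been reported to act on the transcription factor Irf3, had 153% and 148% in KO and 104% and 102% in WT. Trim25 attaches ubiquitin to the RNA sensor RIG-I and is also a ligase for the ubiquitin-like protein Isg15, and its level was 339% and 309% in KO and 247% and 254% in WT. Trim21 is the receptor that binds antibody-coated viruses inside the cell, and it stood at 138% and 136% in KO and at 110% and 107% in WT. In all of these genes both KO arrays lay above both WT arrays, where 28.0% of all genes lay wholly above and 30.5% wholly below. The log2 differences were 0.55 ± 0.08 for Trim26 (limma adjusted p = 0.0956), 0.37 ± 0.09 for Trim25 (limma adjusted p = 0.138) and 0.34 ± 0.08 for Trim21 (limma adjusted p = 0.128). With the intensity trend limma gave adjusted p-values of 0.0183 for Trim26, 0.0422 for Trim25 and 0.0553 for Trim21. The probe of Trim26 lies at chr17:36996235-36996294 (plus strand), that of Trim25 at chr11:88881205-88881264 (plus) and that of Trim21 at chr7:109706597-109706656 (minus), all on mm9.

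Trim56 and Trim14 were the interferon-linked members whose arrays did not separate by genotype. Trim56, which adds ubiquitin in the cGAS and Sting1 pathway, had 373% and 410% in KO and 348% and 383% in WT. Trim14, a member without a RING that works as an adaptor at Mavs, had 64.4% and 61.8% in KO and 62.3% and 68.6% in WT. The log2 difference was 0.10 ± 0.10 for Trim56 (limma adjusted p = 0.591) and -0.05 ± 0.09 for Trim14 (limma adjusted p = 0.767). The sign of Trim14 turned when arrays were scaled to their median signal (0.03).

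**Figure D3:**
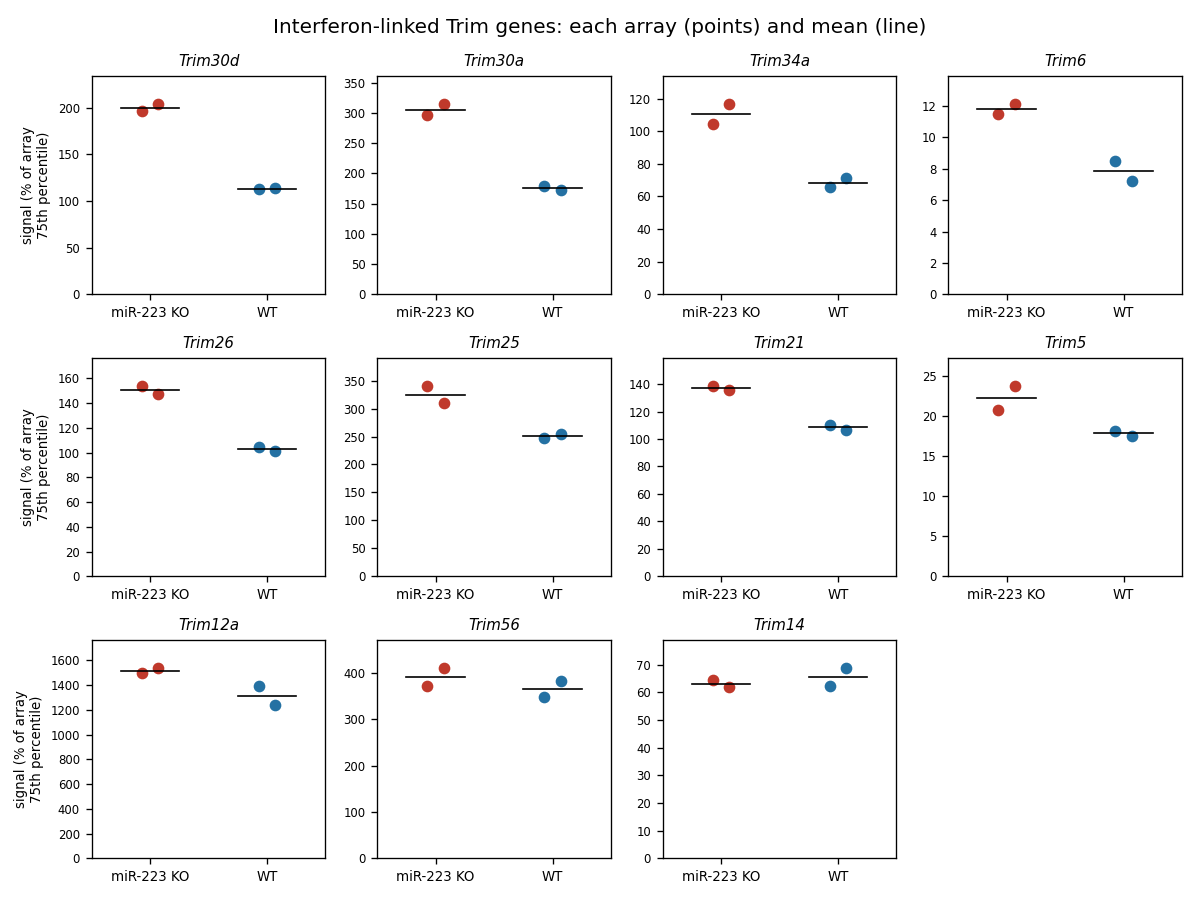
Signal of each interferon-linked Trim gene as a percentage of the array's 75th percentile (y axis, linear and from 0), by genotype with miR-223 KO (red) and WT (blue); points are single arrays and lines the mean of 2. In the first 9 panels both KO points lie above both WT points, from 196% and 203% over 113% and 113% in Trim30d to 1494% and 1535% over 1394% and 1237% in Trim12a, and in Trim56 and Trim14 they overlap.

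Genes outside the family that make or pass on the same signals were read from a list of interferon signalling and ubiquitin partners. All 33 were measured, 27 were higher and 6 lower in KO, and their median log2 difference was 0.22, beside -0.02 over all genes. By limma 14 were higher and 0 lower at an unadjusted p under 0.05, against 11.8% and 12.0% of all genes. With the intensity trend 10 passed the adjusted threshold as higher and 0 as lower, against 5.45% and 4.13%. The Isg15 system, in which Trim25 is a ligase, was on the higher side: 1.19 ± 0.13 for Isg15, 0.44 ± 0.09 for its activating enzyme Uba7 and 0.40 ± 0.11 for its conjugating enzyme Ube2l6. Rnf135, the ligase Riplet that acts on RIG-I together with or in place of Trim25, had a difference of 0.40 ± 0.08, while Ddx58, the gene of RIG-I itself, had 0.15 ± 0.26 with overlapping arrays. Among targets of other members the differences were 0.65 ± 0.14 for Sting1, 0.22 ± 0.08 for Ikbke, -0.06 ± 0.08 for Irf3 and -0.14 ± 0.12 for Tab2.

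Markers of other cell types were read beside these genes. Of 15 monocyte and macrophage markers all were above background, and 13 were higher and 2 lower in KO, with a median of 0.56. At an unadjusted p under 0.05 by limma 8 of these markers were higher and 0 lower, against 11.8% and 12.0% of all genes. Their summed level, which Ly6c2 dominates, was 69607% and 61952% in KO and 60770% and 60635% in WT. Of 8 dendritic cell markers 4 were higher and 4 lower, with a median of 0.07. Of 8 T and NK cell markers 7 were measured, 1 higher and 6 lower, with a median of -0.08, summed levels of 64.0% and 48.5% in KO and 114% and 108% in WT, and Cd3d at -1.43 ± 0.08 the farthest from 0. Of 7 B cell markers 2 were higher (Ighm by 0.54 ± 0.14 and Cd79b by 0.46 ± 0.13) and 5 lower, so that the median was -0.17 while the summed level was higher, at 4559% and 3612% in KO and 2821% and 2948% in WT. All 12 markers of cycling cells were lower, with a median of -0.48 and summed levels of 23160% and 23409% in KO and 31593% and 30581% in WT. By limma 0 of these 12 were higher and 10 lower at an unadjusted p under 0.05, against 11.8% and 12.0% of all genes. All 12 lay wholly below the WT arrays, as did 30.5% of all genes. The part of these cells in the Trim differences was not tested.

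Outside the interferon-linked members, the highest fitted value was that of Trim62, a ligase of the antifungal adaptor Card9. It passed the detection filter through its KO arrays alone. Its probe gave 7.10% and 4.83% in KO and 1.90% and 2.49% in WT, where it was not well above background on either array. On each WT array the comparison took the probe's own signal or the lowest signal that counted as well above background there, whichever was higher. Against that, KO was at least 2.43-fold higher by the processed signal. The lowest such signal is that of the array's dimmest spot and not a detection limit of this probe, so the bound is rough. The fitted log2 difference of 1.43 ± 0.26 (limma adjusted p = 0.105) rests on those dim WT signals, and with normexp it was 0.02.

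Among NHL members, 2 of 3 on the array were measured and both were higher in KO. Trim3, known from neurons and endosomes, had 91.8% and 86.0% in KO and 57.4% and 61.7% in WT. Trim32, a muscle and brain ligase mutated in a limb-girdle muscular dystrophy and also reported to act on Sting1, had 52.4% and 46.0% in KO and 35.0% and 35.5% in WT. The KO arrays lay above the WT arrays in each, as in 28.0% of all genes. The log2 differences were 0.58 ± 0.09 for Trim3 (limma adjusted p = 0.0962, and 0.0245 with the intensity trend) and 0.48 ± 0.10 for Trim32 (limma adjusted p = 0.119). Trim65, which activates the RNA sensor Ifih1, followed with 33.1% and 26.6% in KO and 20.8% and 20.3% in WT, a difference of 0.53 ± 0.14 (limma adjusted p = 0.145). With normexp Trim32 stood at 0.29 and Trim65 at 0.25.

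Trim35 and Trim45 were higher by 1 probe each and not by their others. Trim35, first described in a haematopoietic lineage switch, had 296% and 284% in KO and 220% and 217% in WT by its brightest probe, a difference of 0.41 ± 0.08 (limma adjusted p = 0.113, and 0.0280 with the intensity trend). Its other probes gave -0.32 and -0.03, so that the mean over its probes was 0.02. Trim45, reported in human cells as a repressor of mitogen-activated kinase signalling, had 145% and 140% in KO and 115% and 108% in WT, a difference of 0.36 ± 0.09 (limma adjusted p = 0.133), against -0.02 by its other probe.

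The lower side held mostly dim genes. Trim69, described in testis and at centrosomes, had 6.31% and 7.87% in KO and 11.05% and 13.5% in WT. Trim10, a factor of late red cell maturation, had 3.26% and 2.96% in KO and 5.003% and 5.11% in WT. Both were lower on each KO array than on either WT array, as were 30.5% of all genes. The log2 differences were -0.79 ± 0.17 for Trim69 (limma adjusted p = 0.121) and -0.70 ± 0.09 for Trim10 (limma adjusted p = 0.0883, and 0.155 with the intensity trend). With normexp they stood at -0.37 for Trim69 (limma adjusted p = 0.0411) and at -0.32 for Trim10. Erythroid markers were mostly lower as well. Of 12, 11 were on the array and 6 were measured, of which 1 was higher and 5 were lower, with a median of -0.66. Their summed level, almost all from Hba-a1, was 3385% and 2608% in KO and 4622% and 4498% in WT. The defining markers Gata1 and Klf1 were not above background on 2 arrays, and the part of erythroid RNA in the Trim10 value was not tested.

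Trim37, Trim17, Trim9 and Trim27 followed on the lower side. Trim37, a MATH-domain ligase of peroxisomes and centrosomes, was at 161% and 128% in KO and 201% and 193% in WT, a difference of -0.46 ± 0.14 (limma adjusted p = 0.182) that all 3 of its probes shared in sign. Trim17, which promotes death of neurons, had 7.64% and 7.43% in KO and 9.08% and 11.6% in WT (-0.45 ± 0.15, limma adjusted p = 0.196). Trim9, a neuronal ligase, had 4.59% and 4.22% in KO and 5.69% and 5.20% in WT (-0.31 ± 0.10, limma adjusted p = 0.191), but its second probe gave 0.18. Trim27, which acts in retromer traffic, had 135% and 128% in KO and 147% and 157% in WT (-0.21 ± 0.09, limma adjusted p = 0.258). In all of them both KO arrays lay below both WT arrays, as in 30.5% of all genes. They were picked for their small p on this side, which favours such separation. Trim37 stood at -0.29 without KO replicate 2, Trim17 at -0.27 both with normexp and without WT replicate 2, and Trim27 at -0.13 after median scaling.

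The chromatin members lay close to 0. Trim28, the corepressor that silences endogenous retroviruses, had 840% and 735% in KO and 742% and 910% in WT, and Trim33, which acts on Smad4, had 652% and 627% in KO and 686% and 610% in WT. The genotypes overlapped in both, with log2 differences of -0.06 ± 0.15 for Trim28 and -0.02 ± 0.10 for Trim33. For Trim24, a nuclear receptor cofactor, the difference was -0.12 ± 0.09, with both KO arrays below both WT arrays.

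Other structural groups held small or uncertain differences. The muscle members Trim54, Trim55 and Trim63 had a median of -0.05, the neuronal and cytoskeletal members with COS and FN3 domains (Trim9, Trim36, Trim46 and Trim67) a median of -0.18, and the membrane-bound Trim13 and Trim59 values of 0.26 ± 0.17 and -0.05 ± 0.18. Trim8, which regulates cytokine signalling, had 0.07 ± 0.12 and Trim11 -0.06 ± 0.09, with overlapping arrays in each. Both KO arrays lay above both WT arrays in Trim13 and in Trim16 (0.22 ± 0.11), and below them in Trim39 (-0.10 ± 0.08) and Trim68 (-0.21 ± 0.10). The shares over all genes were 28.0% wholly above and 30.5% wholly below. In Trim23, Trim36, Trim41, Trim44, Trim46, Trim47, Trim50 and Trim67 the genotypes overlapped, with differences between -0.26 and 0.10. The least certain values were those of Trim52 (0.71 ± 0.88) and Trim54 (-0.63 ± 0.61), whose replicates lay far apart.

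How far a value rests on 1 probe could be read in the 21 members with several measured probes. In 15 of them all probes had the same sign, and in 6 (Trim6, Trim9, Trim16, Trim35, Trim44 and Trim45) they lay on both sides of 0, in Trim6 and Trim35 by over 0.5 between lowest and highest. The probes of the Trim30 pair lay close together, with 0.79 and 0.69 for Trim30a and 0.82 and 0.84 for Trim30d. Trim34a gave 0.69, 0.67 and 0.33, Trim25 gave 0.37 and 0.21, and Trim12a gave 0.21 and 0.30. Trim26 gave 0.55 and 0.64 by its bright probes and 0.08 by a dim one. Trim6 was the least even of the interferon-linked members, at 0.60, -0.05 and 1.42, the last by a probe that was above background in KO alone. For that probe the processed signal gave a rough bound of at least 1.27-fold. For Trim27 the brightest probe gave -0.21 and the other -0.69.

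**Figure D4:**
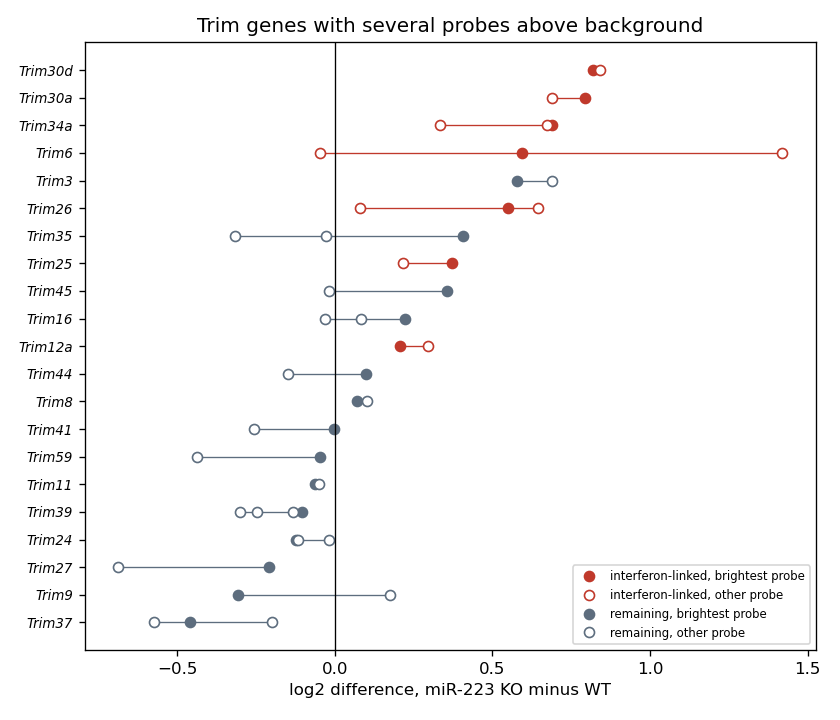
Log2 difference, miR-223 KO minus WT (x axis), of each measured probe in the 21 Trim genes with several; filled points are the brightest probe, which stands for the gene elsewhere, open points the others, and lines join the probes of a gene. Both probes of Trim30d (0.82 and 0.84) and Trim30a (0.79 and 0.69) lie close together, while those of Trim6 run from -0.05 to 1.42 and those of Trim35 from -0.32 to 0.41.

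Letters that could pair with miR-223 were looked for in the probes, which are stretches of the transcripts themselves. The mature strand is given with its seed, bases 2 to 8, in capitals (RefSeq, chrX:96242884-96242905 of GRCm38.p6, plus strand), and the 3 member probes that held a match to seed bases follow, with the match in capitals.
mmu-miR-223-3p: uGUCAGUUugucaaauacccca
Trim32: ggtttgACTGACcctagttgga
Trim6: agggtaatACTGACttttcatc
Trim34a: cttggagAACTGACtcaccatt
The 6 bases ACTGAC were in 3 of 100 member probes (3%), against 581 of 41174 probes on the array (1.41%). The Trim32 and Trim6 probes are those that stand for their genes, with log2 differences of 0.48 and 0.60, and the Trim34a probe, which holds a 7-base match, is a dimmer one with 0.33. A probe covers a small piece of its transcript and the files do not say which region it lies in, so these matches are descriptions and the many members without one are not shown to lack a site.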

How the data were processed

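Signals came from 4 single-colour Agilent arrays, 2 of miR-223 KO and 2 of WT. Images were quantified in Agilent Feature Extraction 10.5.1.1, per the file headers, and the deposited intensity used here is the processed signal, from which background had been taken off and which is unscaled across arrays. Mean spot and background intensities are deposited beside it. A table of log2 values was also deposited by the authors, whose scale is not stated; each column followed the log2 processed signal of its array over all probes with a Pearson's r of at least 0.9999 and a constant offset per array. It served as an alternative.

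The log2 processed signal had the 75th percentile of non-control spots of its array subtracted. Probes well above background on at least 2 arrays entered the fit (25749 of 41174) and the brightest probe stood for its gene. Symbols were updated through RefSeq (GRCm38.p6): 26925 probes by accession, 893 by synonym, while 5576 held a current symbol and 7780 kept the file's name. Genotypes were compared with limma 3.58.1 in R 4.3.3 (prior degrees of freedom 1.83), adjusted by Benjamini-Hochberg over 16978 genes and tested on simulated data. Replicate numbers were not used as pairs in this fit, since the labels name no shared animal or day. The number of arrays limits the precision.

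The members and lists were chosen with earlier results of these data known. Interferon-linked members are those on a list of genes reported to be induced by interferon, which may not be complete. Named with values per array were all of these, the 6 remaining members with the smallest p in each direction, and members above background in 1 genotype alone; others were named by role, and Trim12c and Trim30b as neighbours. Alternatives changed the background correction (normexp, offset 50), scaling, starting values, filter, probe rule, outlier spots, variance prior, block, list and arrays used.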

Additional observations from a re-analysis of the deposited data

How the results depend on the processing

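The interferon-linked members kept a positive median under every alternative run, at 0.37 in the values above, 0.27 with normexp, 0.45 after median scaling, 0.45 on the authors' deposited values, 0.34 as the mean over probes and 0.29 over a wider list of 24 measured members that adds reported regulators of interferon signalling. Leaving out 1 array at a time gave 0.36 to 0.44. The remaining members had a median of -0.05, which was 0.032 on the authors' deposited values and ran from -0.063 to 0.057 with 1 array left out, the highest without WT replicate 1. At an adjusted p under 0.05 limma passed 0 members in the values above, 7 with normexp (6 higher and 1 lower; all genes 5.30% and 5.74%), 7 with the intensity trend (all higher; all genes 5.45% higher) and 1 when probes had to be above background on all 4 arrays (higher; all genes 0.557% higher). The count at an unadjusted p under 0.05 was 19, where 23.8% of all genes passed, and 9 to 15 with 1 array left out, where 14.6% to 20.0% of all genes passed, both lowest without WT replicate 2. The difference of Trim14 changed sign to 0.028 after median scaling and to 0.030 on the authors' deposited values, and ran from -0.12 to 0.018 with 1 array left out, the highest without WT replicate 2. With the replicate number as a block, 18 members had an unadjusted p under 0.05 (all genes 22.3%) and 0 passed (lowest adjusted p 0.162 by limma). Deviations of same-numbered arrays correlated at 0.0386, which cannot settle whether the numbers pair the samples, and the labels do not say. Of 23 named genes, the other 22 kept their sign in all alternatives that measured them. Dim members such as Trim62, Trim10, Trim9 and Trim6 are limited by their low signal over background. Shared hybridisation between members of the chromosome 7 cluster was not tested.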

Other observations

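Some proteins of the TRIM family carry other names and are no members by name. Pml, which builds nuclear bodies and is itself inducible by interferon, had 347% and 289% of the array's 75th percentile in KO and 296% and 316% in WT, 0.05 ± 0.13 apart on the log2 scale (KO minus WT, with the SE from limma over 2 arrays each). Mefv, the inflammasome sensor pyrin of granulocytes, had a difference of 0.03 ± 0.08, and Mid1, a microtubule-bound ligase, one of 0.09 ± 0.10. Genotypes overlapped in Pml and Mid1. Of the 7 genes of this kind 5 were measured, with a median of 0.09. By limma 0 had an unadjusted p under 0.05 in either direction, where 11.8% of all genes were higher and 12.0% lower.

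The reported regulators of interferon signalling that are not themselves listed as induced, the genes that make the wider list, were not on 1 side. Of 13 measured, 7 were higher and 6 lower in KO with a median of 0.07, and 4 were higher and 0 lower at an unadjusted p under 0.05 by limma, where 11.8% of all genes were higher and 12.0% lower. Those 4 were Trim65, Trim32, Trim35 by its brightest probe, and Trim62, whose p rests on WT signals not above background and whose difference was 0.02 with normexp.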
